A study of Mus musculus with 20 samples.

Results

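Gm-numbered transcripts are mouse genes that carry a catalogue symbol, the letters Gm and a number, because no functional name has been given to them. The set described here holds the 176 genes of 15956 listed whose symbol has this form and whose mean raw count over the 20 libraries was 50 or more, after 4 symbols (Gm42970, Gm42971, Gm42972 and Gm4951) were left out by name. The table lists 1505 Gm-numbered genes in all, and 179 of them reached the minimum before the named symbols were left out. The members were thus chosen by their mean raw count and their name alone, so their levels are a description. Just inside the minimum were Gm43792 at 50.35, Gm13212 at 51.60 and Gm44836 at 51.70 counts, and just outside it were Gm10240 at 49.75, Gm10689 at 49.45 and Gm26601 at 49.35 counts. The mean of raw counts was 50 or more in every diet group for 128 members, in 3 groups for 31, in 2 groups for 13 and in 1 group for 4. In the high-fat group 34 members were under 50, 19 of them in that group alone, and had passed through other groups, so their direction against that group was partly set by the minimum. Between the high-fat and the normal-protein group, 30 members were under 50 in the former and at 50 or more in the latter, and 12 the other way. Of the 34 members under 50 in the high-fat group, 25 were among the intronic members described below.

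RNA was sequenced from left ventricular tissue of male mice in 20 libraries. The mice were aged 18 months per the labels, while the study's methods give a younger age. Each of 4 diet groups had 5 libraries from differently numbered animals, and 1 LP library is labelled as sample 2 of animal 5. The groups were fed normal protein (NP), low protein (LP), a high-fat diet (HF), or a high-fat diet with low protein (HF + LP). The labels give no genotype, strain or other treatment for any group. The study asked how protein restriction acts on the aging heart with and without diet-induced obesity.

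Many Gm-numbered genes come from automated annotation of the mouse genome. Among them are long non-coding RNAs, pseudogenes copied from protein-coding genes, antisense transcripts, and loci labelled TEC, for which the annotation still awaits experimental verification. A TEC locus is often a single block of sequence supported by polyadenylated cDNA and lying inside an intron of a named gene. Intronic RNA and the unspliced precursors of messenger RNA reside mainly in the nucleus, whereas spliced messenger RNA is mainly cytoplasmic. The libraries were made by QuantSeq 3′ sequencing, in which an oligo-dT primer anneals to stretches of A, so both poly(A) tails and runs of A inside a transcript can be primed.

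Because internal runs of A matter to this kind of library, the runs in 4 of the intronic transcripts described below are shown with their flanks, from GENCODE M21 transcripts on GRCm38. The capitals mark the longest run of A in each transcript, which was 12 bases in Gm42992 (chr5:131988991-131989052, minus strand), 11 in Gm38380 (chr1:13355782-13355842, minus strand), 18 in Gm37033 (chr1:180361317-180361384, plus strand) and 23 in Gm42432 (chr9:110041840-110041912, plus strand).
Gm42992: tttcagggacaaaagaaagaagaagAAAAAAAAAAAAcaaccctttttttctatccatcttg
Gm38380: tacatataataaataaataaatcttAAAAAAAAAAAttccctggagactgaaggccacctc
Gm37033: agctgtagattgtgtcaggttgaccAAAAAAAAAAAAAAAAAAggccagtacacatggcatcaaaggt
Gm42432: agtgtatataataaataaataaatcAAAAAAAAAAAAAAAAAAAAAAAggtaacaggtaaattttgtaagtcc

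The last 60 bases of a further intronic transcript, Gm42480 (chr5:57795694-57795753, plus strand), are shown because they hold AATAAA, the letters of the common polyadenylation signal, here in capitals.
Gm42480: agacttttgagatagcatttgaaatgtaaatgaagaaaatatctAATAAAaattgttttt

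By annotated biotype, TEC was the most frequent class with 61 members (34.7%), followed by 25 lincRNAs, 24 protein-coding genes, 21 processed pseudogenes, 20 antisense transcripts, 10 sense intronic transcripts and 5 processed transcripts. The remaining 10 members belonged to 8 other biotypes. Pseudogenes of any kind made up 27 members, and 26 of them had a near-identical copy elsewhere in the annotation, meaning at least 90% identity over at least 75 bases. Over all biotypes 77 members had such a copy, so reads of a copy may be counted on them or the reverse. All 61 TEC members had a single exon.

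By position, 71 members lay wholly within an intron of another listed gene on the same strand without touching its exons. They are called intronic members below, and 53 of them were TEC. They lay in 59 host genes, 7 of which held more than 1 member: Pcdh7, a protocadherin adhesion gene, held 5, and Apbb2 and the microRNA host gene Mir99ahg held 3 each. A further 37 members overlapped only a gene on the opposite strand, 13 lay up to 5 kb downstream of a gene on the same strand, and 36 had no such neighbour. Whether the counting used strand is not given in the sources used here, so reads of an antisense member and of its partner may not be told apart. Gene counts also cannot tell an intronic transcript from unspliced RNA of its host.

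A run of 10 or more A was present in the transcript of 45.1% of intronic members (32 of 71), 14.3% of the other members and 20.1% of all genes tested. AATAAA or ATTAAA, searched on the transcript strand within the last 50 bases, was found in 25.4% of intronic members, 51.4% of the other members, 75% of protein-coding members and 71.5% of all genes tested. The host genes of intronic members also held runs of A often (44.1%) but carried the signal in 71.2%. These are matches of letters within annotated transcripts and not mapped priming sites.

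Total counts per library lay between 12559607 and 23331907, and all 176 members were detected in every library. Ventricular cardiomyocyte markers summed to between 30600 and 44700 CPM (read counts scaled to a common library total) in every library, while atrial markers ranged from 50.2 to 16700 CPM, with the highest sum in LP animal 13. That library also stood apart by its correlation with its group (median 0.908, against 0.944 to 0.979 in the other libraries). Mouse to mouse, 1 member dominated the counts of the set. Gm42418, a lincRNA (chr17:39846958-39848788, plus strand) that overlaps a ribosomal RNA gene annotated on the opposite strand, took 0.0508% to 0.670% of library counts with NP, 0.0319% to 0.873% with LP, 0.131% to 0.887% with HF and 0.0939% to 1.08% with HF + LP. The groups overlapped broadly, and its HF to NP difference was 0.19 ± 0.77 on the log2 scale (± SE). Without Gm42418, the remaining members together held 0.200% to 0.260% of counts in every library.

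**Figure D1:**
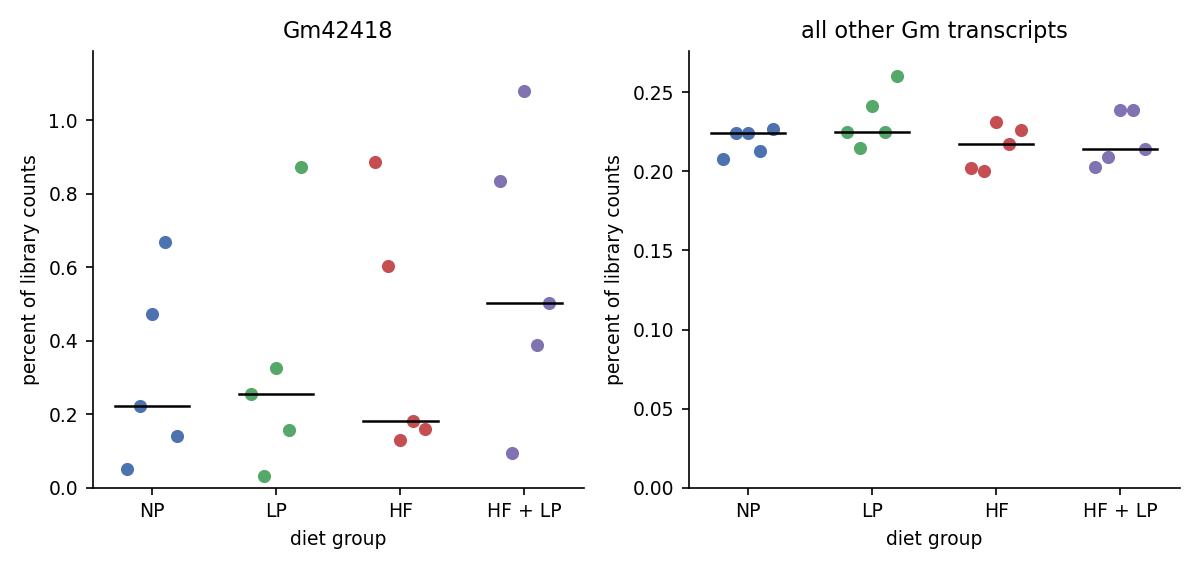
Percent of library counts (y axis) on Gm42418 alone (left) and on all other members summed (right) by diet group, with 1 point per mouse and the group median as a line. Gm42418 varied from 0.0319% to 1.08% between mice of all groups, whereas the other members stayed between 0.200% and 0.260%.

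After Gm42418 the highest members were Gm2830 with a mean of 3610 normalized counts, Gm15543 with 3120, Gm34302 with 3040, Gm44386 with 1510 and Gm5532 with 1240. A normalized count is a raw count divided by the library's effective size relative to the mean library. Gm2830 and Gm8292, the latter at 787, are processed pseudogenes of the ribosomal protein gene Rps24, to which their sequences were 96.1% identical over 385 bases and 97.2% identical over 396 bases. Rps24 itself had 4770, so how the reads were divided among the 3 loci cannot be told apart from these counts. Gm13341, at 927, is an unprocessed pseudogene lying next to Gm13340 on chromosome 2. Gm42418, Gm2830, Gm15543, Gm34302, Gm44386, Gm5532, Gm8292 and Gm13341 did not pass the threshold in any comparison.

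The comparison of HF with NP asked what a high-fat diet at normal protein did. Of the 176 members, 8 passed the threshold (edgeR quasi-likelihood test, Benjamini-Hochberg adjusted p under 0.01 over 13991 genes and a mean normalized count over 50), and all 8 were lower in HF. Over all genes tested, 37 genes or 0.264% passed, 30 of them lower. Lower values prevailed beyond the called genes: 119 members had a log2 fold change below 0, and the median was −0.27, against −0.0011 over all genes. At an unadjusted p under 0.05, 59 members were lower and 4 higher, while 7.91% of all genes were lower and 5.17% higher. The 5 HF mice lay wholly below the 5 NP mice for 29 members and wholly above for 3, against 3.60% and 2.07% of all genes. DESeq2 at the same thresholds called 18 members, all lower, with 0.637% of all genes called lower. Between 5 and 12 members were called when each mouse was left out in turn. As these are bulk tissue values, fewer cells of a type and less RNA per cell cannot be told apart.

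The lower values lay mostly with the intronic members. Of the 71, 68 had a log2 fold change below 0 in HF, the median was −0.71 and the middle values ran from −1.06 to −0.45 between quartiles. At an unadjusted p under 0.05, 43 were lower and 0 higher by edgeR, 25 had HF values wholly below NP, and all 8 called members were among them. For the members outside such introns the median was 0.0023, with 51 below 0 and 0 called by edgeR. At an unadjusted p under 0.05, 16 or 15.2% of them were lower and 4 or 3.81% higher, against 7.91% and 5.17% of all genes. Lower values were thus not confined to introns. By biotype, 58 of 61 TEC members and 10 of 10 sense intronic members lay below 0, with medians of −0.71 and −0.56. Protein-coding members (median 0.08), pseudogenes (0.06) and antisense members (−0.01) were centred near 0, and lincRNAs were at −0.12. Among intronic members that were not TEC the median was −0.61, and among the 8 TEC members outside such introns it was −0.44. The 18 TEC genes outside the set with a mean raw count of 50 or more had a median of −0.93.

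The count minimum used the HF and NP libraries, so the genes were also chosen without them, a choice made after the data had been seen. Over the LP and HF + LP libraries alone, 195 Gm-numbered genes had a mean raw count of 50 or more, 175 of them members. Of these 195, 132 were below 0 in HF against NP, with a median of −0.27 and 8 called. For the 81 within same-strand introns the median was −0.72, with 78 below 0, 48 lower and 0 higher at an unadjusted p under 0.05 by edgeR, and 8 called. Among the 46 intronic members with a mean raw count of 50 or more in HF, a split that itself removes genes low in HF, the median was −0.63, with 44 below 0, 25 lower at an unadjusted p under 0.05 and 6 called. The other 25 had a median of −0.94, with 24 below 0 and 2 called.

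**Figure D2:**
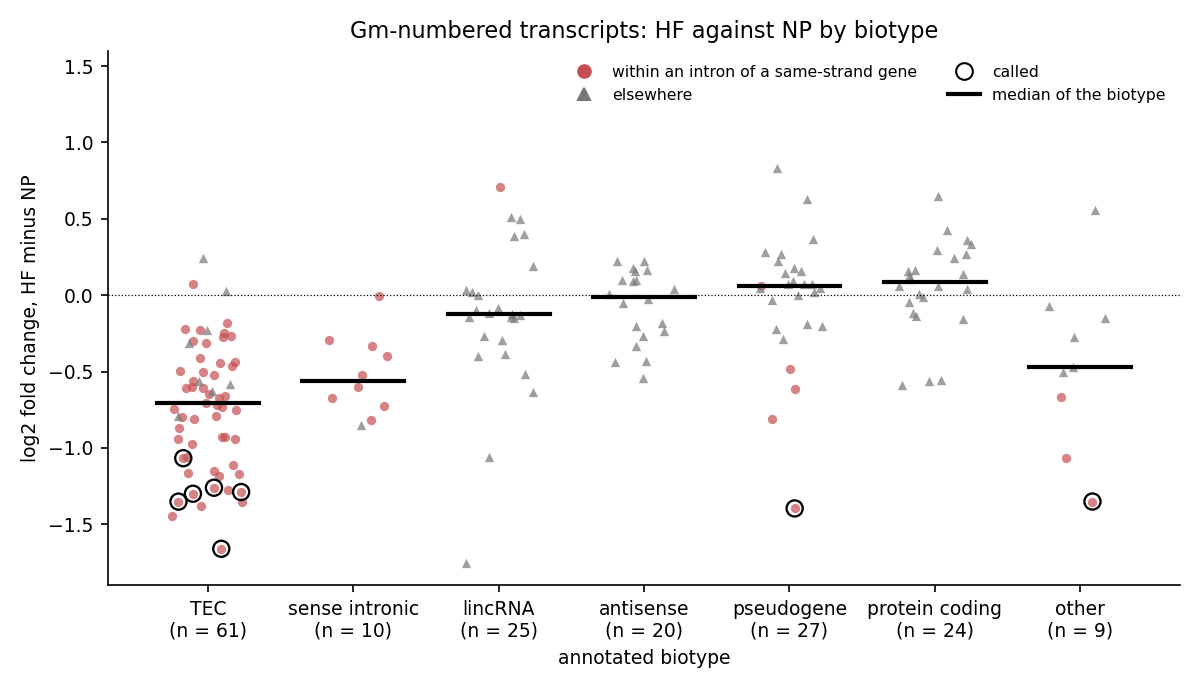
Log2 fold change of HF against NP (y axis) for each of the 176 members by annotated biotype (x axis), with 1 point per transcript. The TEC and sense intronic members lie almost wholly below 0 with medians of −0.71 and −0.56, while protein-coding members, pseudogenes and antisense transcripts spread around 0.

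The intronic members were also divided by a run of A, and the difference between the 2 sets was not tested. The 32 with a run of 10 or more A had a median log2 fold change of −0.73 with 29 below 0, and the 39 without had a median of −0.67 with 39 below 0. The 3 intronic members above 0 thus all had a run. Of those with a run 5 or 15.6% were called, and of those without 3 or 7.69%. The same direction was seen in Gm-numbered genes under the count minimum, of which 334 tested genes lay within a same-strand intron. Their median was −0.64, with 302 below 0 and 87 lower against 0 higher at an unadjusted p under 0.05 by edgeR.

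The called members are described with values for each mouse, in normalized counts, in the order of NP animals 4, 3, 6, 5 and 8, LP animals 2, 13, 20, 15 and 5, HF animals 1 to 5 and HF + LP animals 1 to 5. Gm42992, a TEC locus (chr5:131986549-131993384, minus strand), lies in an intron of Auts2, a nuclear regulator linked to Polycomb complexes. It had 93.1, 117, 96.4, 122 and 106 in NP, 78.5, 88.1, 75.3, 92.0 and 81.0 in LP, 29.2, 38.2, 43.7, 29.9 and 27.6 in HF, and 54.2, 43.8, 41.8, 37.0 and 76.3 in HF + LP. Every HF mouse was below every NP and LP mouse, and HF and HF + LP overlapped. Its log2 fold change of HF against NP was −1.66 ± 0.18 (SE, adjusted p = 7.65e-05), while Auts2 itself was at −0.30. Its mean raw counts of 34.4 in HF and 48.8 in HF + LP were under the minimum of 50, which it passed through NP and LP.

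Gm43813, a processed transcript of 3 exons (chr5:123406487-123411864, plus strand), lies within Mlxip, which encodes the glucose-sensing transcription factor MondoA. It had 134, 140, 117, 180 and 148 in NP, 124, 138, 163, 151 and 104 in LP, 49.6, 63.3, 64.6, 52.8 and 50.6 in HF, and 76.0, 63.0, 75.1, 47.0 and 108 in HF + LP. HF lay below NP and LP without overlap, at −1.35 ± 0.19 against NP (adjusted p = 0.000674), with Mlxip at −0.39.

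Gm38380, a TEC locus (chr1:13354483-13356730, minus strand), lies within Ncoa2, a coactivator of nuclear receptors. It had 110, 139, 120, 146 and 104 in NP, 124, 194, 186, 149 and 131 in LP, 47.0, 55.3, 52.4, 46.6 and 49.1 in HF, and 64.6, 56.6, 82.7, 54.9 and 106 in HF + LP. HF lay below NP and LP without overlap, at −1.30 ± 0.18 against NP (adjusted p = 0.000674), with Ncoa2 at −0.27.

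Gm42480, a TEC locus (chr5:57793159-57795753, plus strand), is 1 of the 5 members within Pcdh7. It had 239, 278, 403, 332 and 359 in NP, 330, 281, 227, 396 and 350 in LP, 153, 141, 172, 150 and 153 in HF, and 199, 208, 243, 184 and 223 in HF + LP. HF was the lowest group without overlap with any other, and the fold change against NP was −1.07 ± 0.15 (adjusted p = 0.000674), with Pcdh7 at −0.43. The other 4 members within Pcdh7 were at −0.81, −0.71, −0.50 and −0.47 and did not pass the threshold.

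Gm45203, a TEC locus (chr7:80110804-80112634, minus strand), lies within Idh2, which encodes mitochondrial isocitrate dehydrogenase. It had 352, 390, 441, 557 and 503 in NP, 587, 466, 524, 625 and 288 in LP, 156, 140, 176, 194 and 209 in HF, and 398, 260, 236, 196 and 259 in HF + LP. HF lay below NP and LP without overlap and touched HF + LP only at its lowest mouse, with a change of −1.35 ± 0.20 (adjusted p = 0.00150) against NP. Idh2, of which it had 1.69% of the count, was at −0.11.

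Gm37033, a TEC locus (chr1:180357649-180364998, plus strand), lies within Itpkb, an inositol trisphosphate kinase gene. It had 436, 565, 695, 662 and 573 in NP, 728, 335, 776, 442 and 733 in LP, 220, 210, 251, 229 and 311 in HF, and 282, 337, 417, 357 and 426 in HF + LP. HF was below NP and LP in every mouse, at −1.26 ± 0.20 against NP (adjusted p = 0.00290), with Itpkb at −0.35.

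Gm42432, a TEC locus (chr9:110041180-110042796, plus strand), lies within Map4, a microtubule-associated protein gene. It had 140, 197, 152, 152 and 133 in NP, 170, 139, 94.0, 141 and 240 in LP, 63.6, 76.4, 47.2, 73.9 and 56.8 in HF, and 47.9, 56.6, 65.6, 61.6 and 89.7 in HF + LP. Both high-fat groups lay below NP and LP without overlap, and they overlapped each other. The change from NP to HF was −1.29 ± 0.22 (adjusted p = 0.00408), with Map4 at −0.14.

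Gm11510, a processed pseudogene related to the ribosomal protein gene Rpl35a (91.1% identity over 169 bases; chr11:88432986-88433514, minus strand), lies within Msi2, an RNA-binding Musashi protein gene. It had 65.6, 119, 122, 104 and 95.0 in NP, 120, 61.6, 130, 118 and 111 in LP, 40.7, 43.5, 48.0, 29.9 and 30.7 in HF, and 42.7, 37.4, 58.0, 51.5 and 79.4 in HF + LP. HF lay below NP and LP without overlap, at −1.40 ± 0.24 against NP (adjusted p = 0.00416), with Msi2 at −0.13. Its mean raw count was 38.8 in HF and over 50 in the other groups, so it passed the count minimum through those groups.

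**Figure D3:**
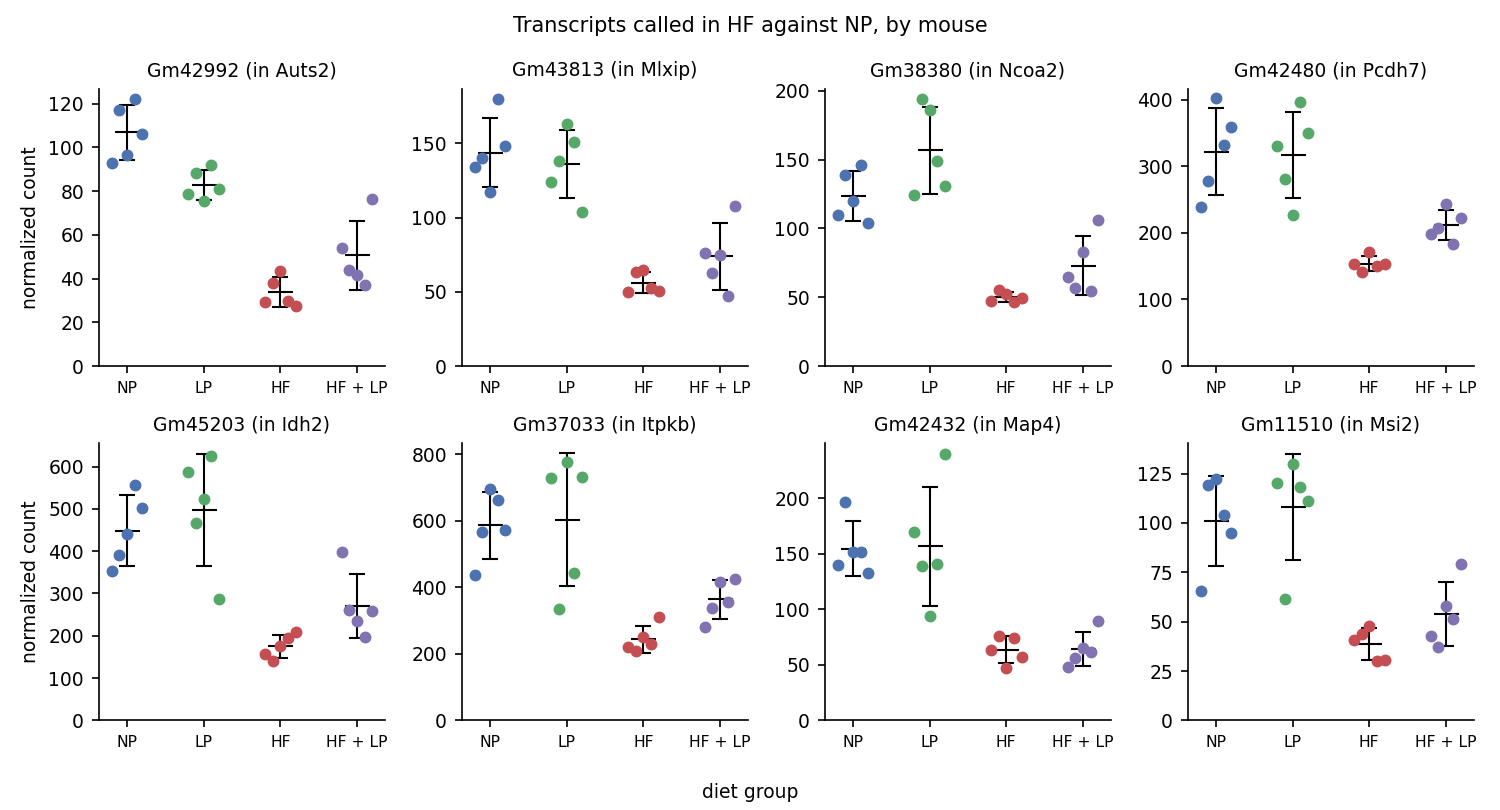
Normalized counts (y axis, from 0) of the 8 members called in HF against NP, by diet group, with 1 point per mouse and each host gene named in the panel title. In all 8 panels the 5 HF points lie below the 5 NP points, and the HF + LP points overlap HF in every panel except that of Gm42480.

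Gm43359 and Gm44005 were intronic members whose HF values lay wholly below NP without passing the threshold, and HF overlapped LP in both through LP animal 13, at 731 and 113. Gm43359, within Atp2a2, the gene of the cardiac calcium pump SERCA2, had 792, 1260, 1390, 1260 and 1190 in NP and 631, 608, 734, 590 and 513 in HF. It was lower in every HF mouse at −0.94 ± 0.22 (adjusted p = 0.0384), whereas Atp2a2 was at −0.20. Gm44005, within the monoacylglycerol lipase gene Mgll, was at −0.93 ± 0.28 (adjusted p = 0.112), while Mgll was at 0.38. The 3 intronic members above 0 were Gm32849 within Nav2 at 0.71, Gm38211 within the collagen gene Col5a2 at 0.07 and Gm10478 at 0.06.

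The host genes differed less in fold change. Of the 59 hosts, 40 were below 0 with a median of −0.13. At an unadjusted p under 0.05 by edgeR, 11 (18.6%) were lower and 3 (5.08%) higher, against 7.91% and 5.17% of all genes. The threshold was passed by 3 hosts (5.08%, against 0.264% of all genes): Zfhx3 at −0.70, Nav2 at −0.81 and Zbtb20 at −0.93. Their intronic members Gm38042, Gm32849 and Gm25873 did not pass. Within each mouse the log2 ratio of member to host was lower in HF for 66 of 71 pairs, with a median difference of −0.52. This ratio was added after the data had been seen. HF lay wholly below NP for 18 pairs and above for 0, against 10.2% of 502 intronic gene and host pairs in the whole table that lay wholly below. By a two-sided exact permutation test, for which 5 against 5 mice allow no p under 0.00794, 27 pairs were lower and 1 higher at an unadjusted p under 0.05, against 23.9% and 0.598% of all 502. After adjustment over the 502 pairs no pair passed 0.05 (smallest adjusted p = 0.0782). Of the other 431 pairs, 337 held Gm-numbered genes outside the set, with a median difference of −0.45 (277 lower), and 94 held genes with other names, with a median difference of −0.43 (82 lower). The median member had 10.6% of the count of its host, and 5 members exceeded it.

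**Figure D4:**
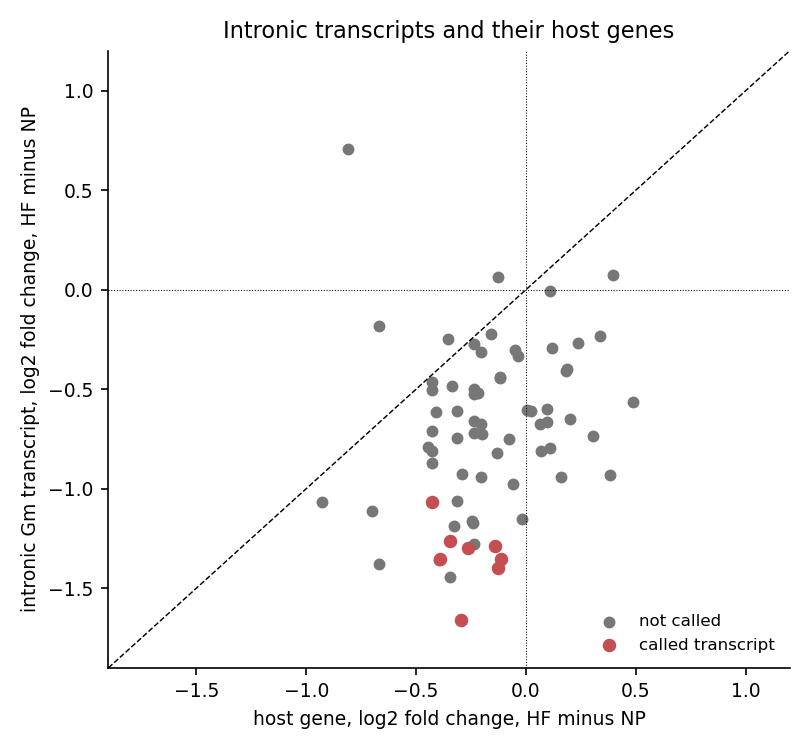
Log2 fold change of HF against NP for each of the 71 intronic members (y axis) against that of its host gene (x axis), with called members in red and the dashed line marking equal change. Most points lie below the line, with a member median of −0.71 and a host median of −0.13.

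RNAs known to stay in the nucleus were listed for comparison, and 12 of 13 were in the table. All 12 were below 0 in HF against NP, against 50.1% of all genes, with a median of −0.66 and values from −1.20 for Neat1 to −0.01 for Pvt1. Of the 12, 4 were lower at an unadjusted p under 0.05 by edgeR, against 7.91% of all genes, and 1 passed the threshold. That gene was Neat1, the scaffold RNA of paraspeckles, at −1.20 ± 0.15 (adjusted p = 0.000389). NP mice had a mean of 11200 ± 1620 normalized counts, LP mice 11900 ± 1890, HF mice 4880 ± 883 and HF + LP mice 6450 ± 1310 (SD, n = 5). The summed level of the 12 ran from 1900 to 5600 CPM in the NP mice, 1570 to 5550 with LP, 1370 to 3360 with HF and 1310 to 4550 with HF + LP. Ventricular cardiomyocyte markers were below 0 in 6 of 6 cases, with a median of −0.24 and 3 lower at an unadjusted p under 0.05 by edgeR. All 5 macrophage markers were above 0 in HF against NP, with a median of 0.40 and 2 higher at an unadjusted p under 0.05, and their median was −0.33 in HF + LP against HF. Summed, they had 126 to 215 CPM with NP, 114 to 351 with LP, 177 to 251 with HF and 116 to 183 with HF + LP. The medians of HF against NP were 0.29 for 4 fibroblast markers, 0.18 for 4 endothelial markers and 0.57 for 3 erythroid markers, with 0 below 0 in each list. All 4 atrial markers were also above 0, with a median of 1.31, and −1.36 in HF + LP against HF; they summed to 137 to 3220 CPM with NP, 143 to 16700 with LP, 122 to 12300 with HF and 50.2 to 5200 with HF + LP. The 1 skeletal muscle marker tested was at 0.47, and at −1.06 in HF + LP against HF. The 2 lymphocyte markers tested had a median of 0.39, and the 4 adipocyte markers one of −0.18 with 3 below 0, and of −2.28 in HF + LP against HF. No gene of these marker lists passed the threshold. In HF + LP against HF the median of the 12 nuclear RNAs was 0.45, with Pvt1 and Jpx below 0. The medians there were 0.17 for ventricular cardiomyocyte, −0.35 for fibroblast, 0.04 for endothelial, 0.24 for erythroid and 0.15 for lymphocyte markers. The share of counts from mitochondrial DNA was 41.3% to 47.1% in NP, 35.4% to 44.5% in LP, 38.1% to 39.8% in HF and 38.5% to 47.2% in HF + LP. The part of these in the members' values was not tested.

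Mice within a group differed in the level of the intronic members as a whole, taken as the median over the 71 of the deviation from the mean of the 20 mice in log2 CPM. In NP the animals were at −0.30, 0.45, 0.39, 0.60 and 0.28, in LP at 0.43, −0.33, 0.40, 0.23 and 0.55, in HF at −0.30, −0.36, −0.46, −0.49 and −0.64, and in HF + LP at −0.13, −0.40, 0.20, −0.03 and 0.28. NP animal 4 and LP animal 13 lay with the HF mice, at −0.30 and −0.33. These 2 libraries also had low Malat1, a nuclear RNA, at −1.10 and −2.23 in the same measure, while their Neat1 was high at 0.81 and 0.76. Malat1 ran from −1.19 to 0.47 in the HF mice. HF animals 1 and 2 were above the mean, at 0.47 and 0.24, and the other HF mice were below it. The log2 fold change of Malat1 in HF against NP was −0.73 ± 0.51 (adjusted p = 0.622, edgeR). Low intronic members thus did not go with low Malat1 in every mouse. The group means of the intronic members were 0.28 ± 0.35 for NP, 0.26 ± 0.35 for LP, −0.45 ± 0.13 for HF and −0.02 ± 0.27 for HF + LP (SD, n = 5). Those of the other members were 0.02, −0.04, −0.04 and 0.10. Without NP animal 4 the intronic median of HF against NP was −0.83 and 10 members were called, and without LP animal 13, 12 members were called.

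The library names also carry a number from 1 to 3 whose meaning is not stated. Within number 1, with 1 HF and 1 NP mouse, the HF to NP difference of this measure was 0.0026. Within number 2, with 1 HF and 2 NP mice, it was −0.78, and within number 3, with 3 HF and 2 NP mice, it was −0.97, against −0.74 over all mice. The NP mouse of number 1 was animal 4.

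**Figure D5:**
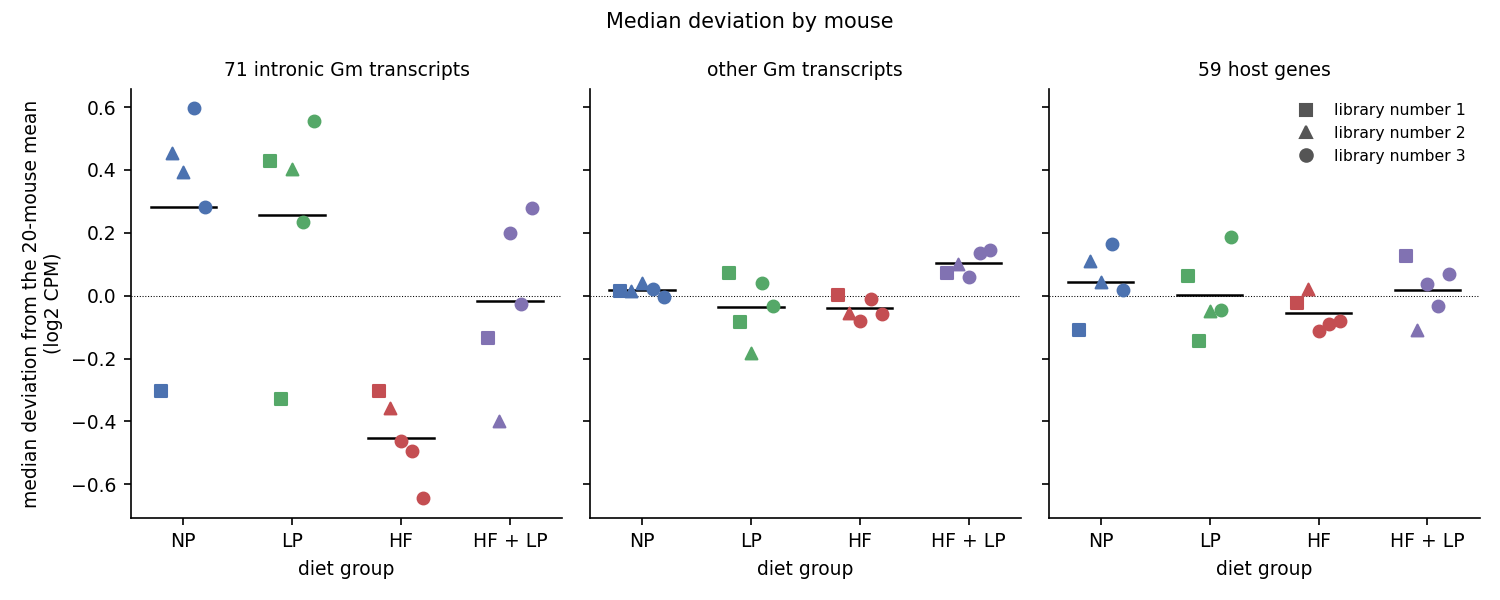
Median deviation from the 20-mouse mean in log2 CPM (y axis) by diet group for the 71 intronic members (left), the other members (middle) and the 59 host genes (right), with 1 point per mouse, the marker shape giving the number in the library name and the line the group mean. For the intronic members HF lay between −0.64 and −0.30, and NP animal 4 and LP animal 13 were the only mice of NP and LP below 0.

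Adding low protein to the high-fat diet was examined by comparing HF + LP with HF, which uses the same HF mice as the comparison above. No member passed the threshold by edgeR (0.0% of all genes, smallest adjusted p of a member 0.287) or by DESeq2, for which 0.135% of all genes passed. The median over the 176 members was 0.25, with 142 above 0, against 0.02 over all genes. At an unadjusted p under 0.05, 30 members were higher and 2 lower, against 2.41% and 2.43% of all genes. The HF + LP mice lay wholly above HF for 4 members and wholly below for 1, against 0.543% and 0.636% of all genes.

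Here too the intronic members differed in count from the others. Of the 71, 68 had a value above 0 in HF + LP against HF, with a median of 0.45, and 22 were higher at an unadjusted p under 0.05 with 0 lower. The members outside introns had a median of 0.11, with 8 higher and 2 lower. The ratio to the host was higher in HF + LP for 62 of 71 pairs, with 13 at an unadjusted p under 0.05 by the exact permutation test (10.6% of all 502 pairs) and none after adjustment. In the order of group means, HF was the lowest of the 4 groups for 65 intronic members, and HF was below NP for 67 of the 71. Of these 67, HF + LP lay between HF and NP for 55, above NP for 11 and below HF for 1. These counts rest on the same HF mice in both steps.

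The smallest p belonged to Gm7584, a processed pseudogene of Cdyl within Txlnb, with 52.5, 113, 68.0, 114 and 91.6 in NP, 68.7, 31.6, 56.8, 48.4 and 44.5 in HF, and 95.8, 55.6, 112, 98.6 and 129 in HF + LP. It was higher in HF + LP than in HF by 0.97 ± 0.26 (adjusted p = 0.287, edgeR), and the groups overlapped in 1 mouse of HF + LP. Gm43281, within Limch1, had 69.2, 165, 137, 134 and 102 in NP, 149, 53.5, 108, 137 and 190 in LP, 43.2, 51.4, 49.8, 45.8 and 46.8 in HF, and 62.5, 67.3, 97.0, 86.2 and 115 in HF + LP. Its HF mice were below all others, at −1.36 against NP (adjusted p = 0.0172) and with HF + LP 0.85 ± 0.28 above HF (adjusted p = 0.537). Gm42480 and Gm43792 were the other intronic members whose HF + LP mice lay wholly above HF, by 0.46 ± 0.15 and 0.45. The mean raw count of Gm43281 was under 50 in HF, so it passed the count minimum through other groups. That of Gm43792 was 50 or more in LP alone, so it passed through LP, and HF and HF + LP were both under the minimum. Gm42432 was at 0.02 in this comparison, so its level in HF + LP stayed near that in HF.

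A few members outside introns had the opposite order. Gm20559, a processed transcript of 14 exons whose gene body overlaps that of Gm43197 on the same strand, had 57.3, 47.3, 64.5, 61.6 and 65.6 in NP, 66.5, 97.5, 63.1, 83.2 and 54.4 in LP, 75, 103, 82.1, 81.0 and 96.7 in HF, and 58.3, 60.9, 59.9, 71.7 and 61.9 in HF + LP. HF lay above NP and above HF + LP without overlap, at 0.56 ± 0.16 (adjusted p = 0.0800) and −0.48 ± 0.16 (adjusted p = 0.537) by edgeR. The other members higher in HF than NP at an unadjusted p under 0.05 were Gm13340, Gm10073 and Gm49339. Gm10073 is a protein-coding entry 98.8% identical to the ribosomal protein gene Rplp1. Among protein-coding members the smallest p was that of Gm45713, whose 13-exon model overlaps the ribosomal protein gene Rpl13a. It had 150, 128, 124, 143 and 114 in NP and 91.5, 88.3, 82.1, 87.1 and 95.9 in HF, a difference of −0.56 ± 0.12 (adjusted p = 0.0228) without overlap.

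For low protein on the normal-fat diet, LP against NP, no member passed by edgeR (0.0% of all genes) or by DESeq2 (0.019% of all genes). The median was 0.02, equal to that of all genes to 2 decimals. With no adjustment, 5 members were higher and 6 lower at p under 0.05, against 5.02% and 2.21% of all genes. The intronic median was 0.04. It was 0.18 without LP animal 13 and 0.01 without LP animal 20, and without NP animal 4 its sign turned to −0.06, with 46 of 71 below 0. Gm12519, a lincRNA of 7 exons on chromosome 4, had 82.3, 106, 80.0, 76.1 and 93.9 in NP, 65.2, 45.9, 47.4, 74.4 and 55.4 in LP, 49.6, 79.1, 72.5, 81.8 and 72.9 in HF, and 88.5, 103, 71.3, 90.7 and 103 in HF + LP. It was lower in every LP mouse than in any NP mouse, by −0.62 ± 0.17 on the log2 scale (adjusted p = 0.387, edgeR).

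The LP group also held members whose level came from 1 mouse. Gm37248, a TEC locus within Satb1, a chromatin organiser known from T cells, had 662 normalized counts in LP animal 20 and 5.09 to 19.6 in the other 19 mice. Gm37124, a TEC locus on chromosome 1 within Gm4258, likewise had 662 in LP animal 20 and 5.09 to 42.1 elsewhere. Both members had 923 raw counts in LP animal 20 and reached the count minimum in LP alone. The minimum thus partly set the LP to NP direction of these members. Their LP to NP differences of 4.02 ± 1.02 and 2.98 ± 0.79 on the log2 scale (both adjusted p = 0.387, edgeR) were 0.46 ± 0.33 and 0.71 ± 0.39 (both adjusted p = 0.999) without that mouse. In LP animal 20 Satb1 was at 5440, against 499 to 697 in the other mice, and lymphocyte markers summed to 21.1 CPM against at most 2.68. The T cell gene Cd3e was at 16.7 CPM there and at most 0.557 elsewhere, and Cd79a, a B cell gene, was not in the table. The part of these cells in the values was not tested.

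Gm32849, a lincRNA within Nav2, was high in LP animal 13 at 304, HF animal 1 at 160, HF + LP animal 3 at 134, LP animal 15 at 132 and HF animal 3 at 83.0, and its lowest value was 0.767. The same 5 libraries had the highest atrial marker sums, at 16700, 12300, 5200, 5010 and 4740 CPM. The mean raw count of Gm32849 reached the count minimum in LP alone. Gm31520, a transcribed processed pseudogene, had 201 in LP animal 13, and its LP to NP difference of 1.43 ± 0.56 (adjusted p = 0.625, edgeR) was 0.65 ± 0.50 (adjusted p = 0.954) without that mouse.

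The effect of a high-fat diet under low protein was read from HF + LP against LP. In this comparison 3 members passed the threshold, 2 lower and 1 higher, against 0.1% of all genes, and DESeq2 called 8 members and 0.544% of all genes. At an unadjusted p under 0.05, 30 members were lower and 19 higher, against 9.66% and 6.26% of all genes, and the median was −0.12, against −0.03 over all genes. The lower members were Gm38380 at −1.10 ± 0.18 (adjusted p = 0.00726) and Gm42432 at −1.28 ± 0.22 (adjusted p = 0.00839), both also called in HF against NP. The intronic median was −0.30 with 57 of 71 below 0. It was −0.42 without LP animal 13, with 67 of 71 below 0, and −0.22 without LP animal 20, with 56 below 0. When each mouse was left out in turn 0 to 3 members were called, with Gm13340 losing its call in 19 of 20 fits, Gm42432 in 17 and Gm38380 in 13, and 0 were called with the library number as a covariate.

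The member that rose was Gm13340, an unprocessed pseudogene (chr2:22588103-22589647, minus strand) that is a nuclear copy of mt-Co1, the mitochondrial gene of cytochrome c oxidase subunit I. The sequences were 97.6% identical over 1545 bases. A stretch of 75 bases from each shows how a read can be shared, and the capitals mark the single base that differs.
Gm13340: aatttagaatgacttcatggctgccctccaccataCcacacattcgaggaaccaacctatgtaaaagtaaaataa
mt-Co1: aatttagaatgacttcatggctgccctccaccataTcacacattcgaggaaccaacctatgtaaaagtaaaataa

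Gm13340 had 123, 232, 197, 139 and 114 in NP, 150, 101, 90.4, 107 and 229 in LP, 281, 289, 203, 245 and 236 in HF, and 368, 268, 448, 326 and 335 in HF + LP. HF + LP lay above LP without overlap, by 1.37 ± 0.24 (adjusted p = 0.00900, edgeR), and HF was 0.63 ± 0.23 above NP (adjusted p = 0.220). The means of mt-Co1 were 106000 ± 13400 for NP, 84700 ± 26300 for LP, 106000 ± 3520 for HF and 127000 ± 15100 for HF + LP (SD, n = 5), with HF + LP 0.58 ± 0.18 above LP (adjusted p = 0.126). How many reads of Gm13340 came from mt-Co1 was not tested.

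Between HF + LP and NP no member passed by edgeR (0.0286% of all genes; smallest adjusted p 0.0130), while DESeq2 called 4 members and 0.194% of all genes. With no adjustment, 19 members were lower and 7 higher at p under 0.05, against 4.87% and 3.89% of all genes. The median over members was −0.05 and that of the intronic members −0.22, with 57 of 71 below 0. Without NP animal 4 the intronic median was −0.36, with 63 of 71 below 0.

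The interaction of fat and protein, the difference between the HF + LP to HF and the LP to NP changes, was tested in the same model. No member passed by edgeR (0.0% of all genes) or DESeq2 (0.0%), and the smallest adjusted p of a member was 0.614. The interaction was positive for 135 of 176 members with a median of 0.25, and for 65 of 71 intronic members with a median of 0.45. With no adjustment, 14 members were positive and 3 negative at p under 0.05, against 2.86% and 4.31% of all genes. Without LP animal 13 the intronic median of the interaction was 0.31, with 59 of 71 positive. It was 0.48 without LP animal 20 and 0.57 without NP animal 4. The smallest p among members was that of Gm12519, at 0.97 ± 0.23 (adjusted p = 0.614, edgeR).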

How the data were processed

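RNA was isolated from left ventricles with Trizol and an RNeasy kit, and QuantSeq 3′ libraries were made with an oligo-dT primer. The authors aligned reads with BlueBee software to GRCm38, per the labels and methods, and deposited a table of raw read counts per Ensembl gene for 20 libraries; strand setting, counter and annotation release are not given in the sources used here, and their notes name DESeq2 1.22.2. The authors' own comparisons were not used. Symbols, biotypes and positions came from GENCODE M21 (15917 of 15956 genes matched). Counts of all genes were fitted with edgeR 4.0.16 (R 4.3.3), TMM scaling, filterByExpr and a quasi-likelihood test with 4 groups and no covariate. All 176 members were tested, and 174 had a mean normalized count over 50. The thresholds (adjusted p under 0.01, mean over 50) follow the study. DESeq2 1.42.0 was the alternative test. Copies were found with BLAST+ 2.17.0. Exact permutation tests used SciPy 1.17.1. Named members were every called member, the 6 higher and 6 lower with the smallest p in 3 comparisons, the 10 with the highest count, the 5 most and 5 least variable and the members at the count minimum; the members above 0 among intronic ones, the 8 high-count genes and those of shared hosts were named after their values were seen. Members, gene lists and tests were chosen with earlier results of these data known. Mice that share a number across groups are different animals and their deviations did not correlate together (−0.553 to 0.476), so the numbers were not used as pairs.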

Additional observations from a re-analysis of the deposited data

Results flagged for a closer look

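Among the 47 named members, 188 groups of 5 mice were checked for a mouse far from the other 4 of its group, and 10 were found, with none in the 8 further groups checked for the share of counts on members; chance alone marks about 1 in 20 groups. LP animal 13 gave 3 of them, and its library also stood apart by its correlation with its group: Gm11510 at 61.6 and Gm5532 at 301 were low, and Gm31520 at 201 was high. LP animal 20 stood out for both Gm37248 and Gm37124 at 662 each, the mouse with the highest lymphocyte marker sum. HF + LP animal 3 was high for Gm32849 at 134 and Gm26870 at 72.3. Gm20559 was high in HF + LP animal 4 at 71.7, Gm44386 was low in NP animal 5 at 1460, and Gm5617 was high in HF animal 2 at 278. The named members include the 5 most variable within groups, among them Gm37248, Gm37124, Gm32849 and Gm26870. The rate of 1 in 20 is therefore no yardstick for the number found. All values are normalized counts, and no cause was tested.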

How the results depend on the processing

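The count of members called in HF against NP, 8 in the report, was 18 with DESeq2, 18 at an adjusted p under 0.05, 13 with only both groups in the model, 3 among members without a near-identical copy, 0 among members that overlap no gene on the same strand, and 5 to 12 when 1 mouse was left out. It was 5 without NP animals 5 or 6 or HF animals 1 or 4, and 12 without LP animal 13. In HF + LP against LP, 3 in the report, it was 8 with DESeq2, 5 at an adjusted p under 0.05, 1 with no filter on low counts, 0 with the library number as a covariate, 0 with only both groups in the model, 1 without members overlapping a same-strand gene, 0 without members with a copy, and 0 to 3 when 1 mouse was left out. In HF + LP against NP, 0 in the report, it was 4 with DESeq2, 1 with at least 10 counts in every library, 3 at an adjusted p under 0.05, and 0 to 3 when 1 mouse was left out.

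The median log2 fold change of members in HF against NP, −0.27, was −0.11 at a minimum mean raw count of 100 and 0.012 among members that overlap no same-strand gene, so the direction of the median rests on the overlapping members. The same choice gave 0.13 in HF + LP against HF, 0.20 in HF + LP against LP and 0.089 in HF + LP against NP, the last 2 with the sign turned. Leaving out 1 mouse gave −0.30 to −0.21 in HF against NP, 0.20 to 0.28 in HF + LP against HF, −0.14 to −0.06 in HF + LP against LP, −0.11 to −0.02 in HF + LP against NP, −0.05 to 0.08 in LP against NP and 0.19 to 0.28 for the interaction. With the animal number as a block, which does not pair these mice, 0 members were called in HF against NP and 0 in HF + LP against LP, and the HF to NP median was −0.23; this fit uses only numbers shared between groups and spends more degrees of freedom. Each called member kept its sign under every setting tried. Of those called in HF against NP, Gm11510 lost the call in 8, Gm42432 in 7 and Gm37033 in 5 of the 20 fits without 1 mouse; in HF + LP against LP, Gm13340 lost it in 19, Gm42432 in 17 and Gm38380 in 13. The member to host ratio, the fits without LP animal 20, the count minimum over LP and HF + LP libraries only and the share without Gm42418 were chosen after seeing the data. Apart from cases stated, the cause was not tested. Standard errors come from the fit across mice and include variation between them, and members near the minimum of 50 counts limit what could be detected.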

Other observations

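The 18 members that share an exon position with a same-strand gene had a median log2 fold change of −0.06 in HF against NP, with 12 below 0 and 0 called by edgeR (4 lower and 1 higher at an unadjusted p under 0.05), while 0.264% of all genes were called and 7.91% were lower and 5.17% higher at that unadjusted p. The median was −0.71 for the 71 members in introns. Among genes named Rik, another catalogue name for mouse cDNA clones, 108 non-coding ones with a mean raw count of 50 or more had a median of −0.18, with 74 below 0 and 5 or 4.63% called. At the same minimum, 179 other non-coding genes outside such introns had a median of −0.06, with 4 or 2.23% called, and 22 within such introns had a median of −0.87, with 21 below 0 and 3 or 13.6% called.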
